A study of Mus musculus with 14 samples.

Results

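The comparison described here is between the 2 kinds of cells profiled after co-culture: D2A1 tumor cells sorted away from Hsf1 null mouse embryonic fibroblasts (MEFs), and Hsf1 null MEFs sorted away from D2A1 cells. The members are the 4 of 14 arrays whose labels name these cells, 2 of sorted tumor cells and 2 of sorted null MEFs, numbered A and B, and every gene tested on them. D2A1 is 1 mouse breast cancer line, and the null MEFs are Hsf1 -/- cells, which lack heat shock factor 1, the transcription factor that induces the heat shock proteins. Both kinds of cells were grown together for 72 h in DMEM with 10% FCS and separated by FACS. Where tumor cells were to be profiled, their MEF partners first received mitomycin C at 10 ug/ml for 2 h, an agent that stops division. Per the labels, the profiled null MEFs were not the treated ones, so sorted tumor cells and sorted null MEFs came from co-cultures set up in different ways. The other groups used for reference were D2A1 cells grown alone, null MEFs grown alone, and the tumor cells and wild-type (WT) MEFs of a co-culture set up in the same way, with 2 arrays each. The labels do not say that A and B were separate cultures, so the p-values measure the spread between these samples, which may be technical.

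The question was what still separates the cell types after each has been grown with the other. Fibroblasts of mesenchymal origin make the fibrillar collagens and proteoglycans of connective tissue and keep a code of Hox and limb transcription factors from the place in the embryo where they arose. Carcinoma lines such as D2A1 carry simple keratins, growth factors and proteases, often together with mesenchymal genes. When cells meet, secreted interferons and chemokines can switch on the same gene programme in both, through JAK-STAT signalling and interferon regulatory factors.

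All levels are the submitters' normalized log2 values of 1-colour arrays, and a difference is the mean log2 level of tumor cells minus that of null MEFs. The 14 arrays had medians from 6.34 to 6.40 and correlated with each other at 0.935 or more. The raw scanner file of sorted tumor array A stood apart, with outlier flags on 36.8% of its spots, while its normalized values correlated with the other arrays as the rest did. Without that array the sorted cells differed at 8268 genes. Genes were tested if they were well above background on every array of at least 1 group, counting only arrays with a sound scanner file. This left 25896 of 36413 gene names. For these sorted tumor cells and for tumor cells alone, only array B had such a file, so the call rests on that array. A gene passed at a Benjamini-Hochberg adjusted p of 0.05 in limma, fitted over all 14 arrays and adjusted over all genes tested. The number of arrays limits the precision.

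The labels were first checked against Hsf1. The Hsf1 level was 12.44 and 12.29 in sorted tumor cells, against 10.52 and 10.67 in sorted null MEFs. Null MEFs grown alone had 10.07 and 9.97, below the 12.01 and 11.69 of WT MEFs grown alone. The Hsf1 probe read lower in null than in WT MEFs on all arrays, but its place relative to the deleted part of the gene is not given in the sources used here. The null MEF level was above the array floor of 4.50 to 4.85. Sorted tumor cells exceeded sorted null MEFs in Hsf1 by 1.77 ± 0.12 (log2 ± SE, limma adjusted p = 2.21e-06), and tumor cells alone exceeded null MEFs alone by 2.81 ± 0.12.

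The collagen gene Col3a1 and the keratin gene Krt18 were each higher in the cell type they mark, and lower but measurable in the other. Wider lists of fibroblast and epithelial markers were split in direction, as given below. Type III collagen, Col3a1, a fibroblast product, was at 12.69 and 14.63 in sorted tumor cells, against 16.37 and 16.49 in sorted null MEFs. Keratin 18, Krt18, an epithelial filament protein, was at 16.50 and 16.47 in sorted tumor cells, against 14.57 and 15.17 in sorted null MEFs. The groups did not overlap for either gene, which is no check, as both were named by a rule that used these same arrays. Yet tumor cells alone had 5.32 and 6.30 for Col3a1 and null MEFs alone had 7.40 and 7.91 for Krt18. The 2 classical epithelial surface markers Cdh1 and Epcam stayed near the floor in both kinds of cells, with Cdh1 at 5.14 and 5.13 in tumor cells and 5.46 and 5.55 in null MEFs. Epcam did not pass the filter on dim genes and had 5.46 and 5.50 in tumor cells and 5.13 and 5.05 in null MEFs.

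The signal of the other cell type was measured over whole marker sets. The 252 genes at least 32-fold lower in tumor cells than in null MEFs when each was alone gave a median signal, on the linear scale above the tumor cells' own level, of 9.90% (array A) and 22.4% (array B) of the null MEF signal on the sorted tumor arrays. Their quartiles were 5.87% and 14.6% on array A and 13.8% and 33.3% on array B. The 89 genes at least 32-fold higher in tumor cells alone gave 7.72% and 10.4% of the tumor signal on the sorted null MEF arrays A and B, with quartiles of 5.47% and 13.7% on array A and 5.99% and 17.8% on array B. Cells of the other type in the sort and expression by the sorted cells themselves cannot be told apart from these values. In bulk samples such as these, fewer cells of a type and less RNA per cell cannot be told apart either. Counts were also computed after these shares were subtracted, and they moved by 3 genes or fewer in each direction in each of the 31 lists below. The subtraction cannot turn the sign of a difference between same-letter sorted arrays and can only widen it. Steady counts are therefore no check of this signal. Per the labels, the null MEF levels subtracted were those of untreated MEFs, not of the treated partners.

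Sorted tumor cells and sorted null MEFs differed at 11099 of 25896 genes, or 42.9% (limma, adjusted p of 0.05). Of these, 5345 genes (20.6% of those tested) were higher and 5754 (22.2%) were lower in tumor cells. The difference was at least 2-fold for 1761 higher genes (6.80%) and 2212 lower genes (8.54%). The sign was the same on both slides for 11097 of the 11099 genes. This count is no check of the slides, as the genes were selected by a test on these same arrays. Over all genes tested the differences on slides A and B correlated at r = 0.866, a description across genes that are not independent. Tumor cells alone and null MEFs alone differed at 13626 genes, or 52.6%, of which 7057 (27.3%) were higher and 6569 (25.4%) lower in tumor cells. Both comparisons called 9383 genes, and 9224 of them had the same direction, which is 83.1% of the co-culture calls and 67.7% of the calls alone. The other 159 genes passed in opposite directions, 140 of them (0.541% of genes tested) lower in tumor cells alone and higher in co-culture, and 19 (0.0734%) the other way.

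**Figure D1:**
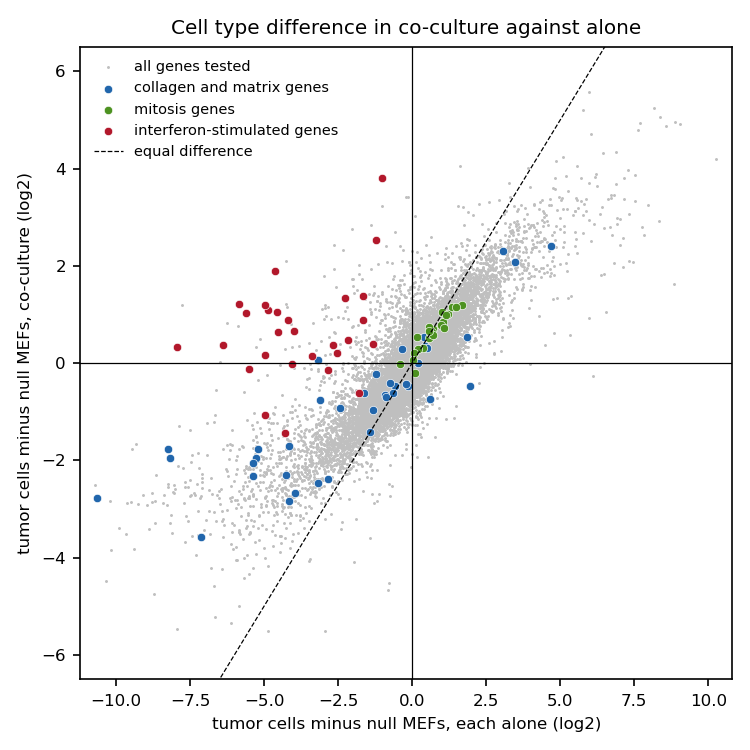
Difference between tumor cells and null MEFs in co-culture (vertical axis, log2) against the difference between the same cells grown alone (horizontal axis, log2), 1 point a gene, with 3 gene lists coloured. The points lie flatter than the dashed line of equal difference, and interferon-stimulated genes sit left of 0 on the horizontal axis with most of them above 0 on the vertical axis.

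For genes that passed alone, the median differences were smaller in co-culture than alone in every size group. The genes were chosen and grouped by the difference alone, which by itself favours smaller values on other arrays. How much of the fall this accounts for was not tested. Among the 89 genes at least 32-fold higher in tumor cells alone, the median log2 difference was 3.12 in co-culture against 6.21 alone, and 100% still passed. Among the 252 genes at least 32-fold lower in tumor cells alone, it was -2.67 in co-culture against -5.96 alone, and 94.0% still passed. For those 252 genes slide A gave -3.16 and slide B -2.07, and the sorted tumor array B is the one with 22.4% of the null MEF signal. Genes with smaller differences alone kept more of them: the 2316 genes 2- to 8-fold higher in tumor cells alone had medians of 0.99 in co-culture and 1.43 alone. The test of the change itself, in which the co-culture and alone differences share no array, called 2478 genes (9.57%), with 1542 (5.95%) shifted toward tumor cells and 936 (3.61%) toward null MEFs. After the marker signal was subtracted, 1034 genes passed that test, while 12066 passed the comparison of the sorted cells.

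**Figure D2:**
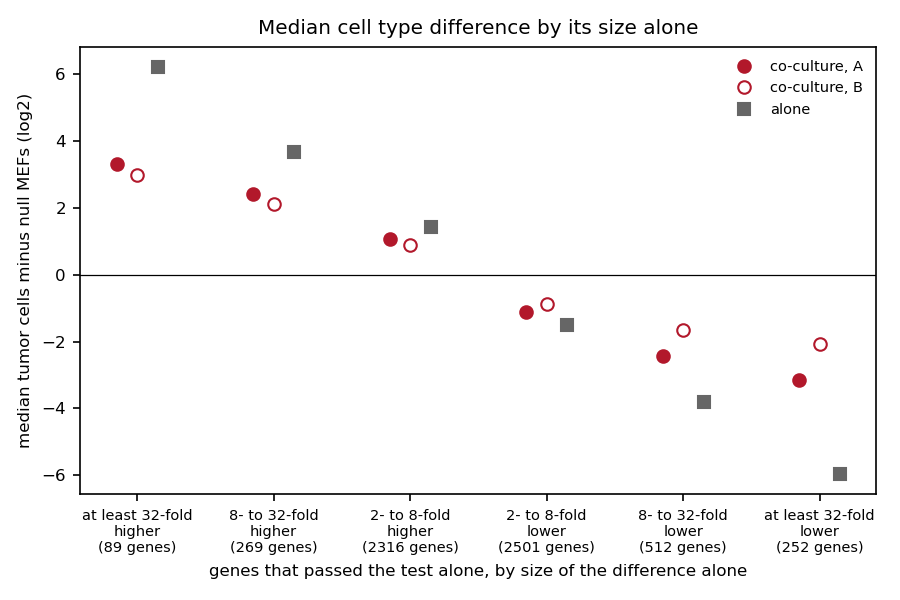
Median difference between tumor cells and null MEFs (log2) for genes that passed the test alone, grouped by the size of the difference alone, with co-culture arrays A and B and the cells alone as separate marks. Every group lies nearer 0 in co-culture, and A lies farther from 0 than B among genes that were lower in tumor cells.

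The genes with the highest excess in sorted tumor cells included surface proteins, a transcription factor and secreted products. Integrin beta 7, Itgb7, a leukocyte adhesion receptor subunit, was at 13.30 and 12.73 in tumor cells and 7.26 and 7.61 in null MEFs, a difference of 5.58 ± 0.31 (limma adjusted p = 6.48e-07). Fosl1, the AP-1 subunit Fra-1, was at 13.85 and 13.90 in tumor cells and 9.15 and 9.18 in null MEFs, a difference of 4.71 ± 0.14 (limma adjusted p = 4.54e-08). Ramp3, which partners the calcitonin receptor-like receptor, was at 15.53 and 15.13 in tumor cells and 10.48 and 10.43 in null MEFs. For these 3 genes each tumor array lay more than 4 log2 units above each null MEF array. Wfdc2, a secreted whey acidic protein family member known as a carcinoma marker, was at 16.30 and 15.85 in tumor cells and 11.95 and 11.80 in null MEFs. Its difference was 4.20 in co-culture and 10.25 alone, since null MEFs alone had 5.97 and 6.13. Prl2c5, a prolactin family hormone (5.20), 2310002L13Rik (4.97) and 1810020O05Rik (4.16) were also among the 12 highest differences. Nlrp2, an NLR family protein, was at 10.85 and 11.41 in tumor cells and 7.19 and 6.97 in null MEFs, and its difference was greater in co-culture (4.06) than alone (1.62), with a change of 2.44 ± 0.30 (limma adjusted p = 0.000478).

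The bitter taste receptor genes Tas2r109 (5.25) and Tas2r113 (4.93), the melanocortin receptor gene Mc3r (4.79) and Gm10408 (4.32) completed the 12. Tas2r109 was at 14.87 and 13.91 in tumor cells and 9.38 and 8.91 in null MEFs. The probes of Tas2r109, Tas2r113 and Gm10408 contain the run CTCTCTCT, whose part in these levels was not tested. Among genes not well above background in null MEFs, the immune receptor gene Tigit was at least 18.8-fold higher in tumor cells, at 9.61 and 8.80 against 4.92 and 5.03 in null MEFs (limma adjusted p = 3.92e-07). Mettl7b, Gm4610 and Slfn3 were at least 13.1-fold, 8.79-fold and 7.51-fold higher in tumor cells, though Mettl7b and Slfn3 were well above background on 1 of the 2 null MEF arrays. These genes entered the test through the groups in which they are high. Each bound sets the tumor mean against the higher of the null MEF level and the lowest level well above background. For every bound given in this report, in either direction, the measured level of the dimmer cells was the higher. Each bound therefore equals the measured difference and makes no allowance for its error.

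The 12 lowest differences held matrix, patterning and early-response genes. Sobp was at 5.99 and 7.63 in tumor cells and 12.14 and 12.43 in null MEFs, a difference of -5.47 ± 0.38 (limma adjusted p = 2.47e-06). Matrix Gla protein, Mgp, an inhibitor of calcification, was at 9.28 and 10.64 in tumor cells and 14.15 and 14.17 in null MEFs, a difference of -4.21. Selenbp1, a selenium-binding enzyme, was at 8.14 and 9.19 in tumor cells and 13.25 and 13.60 in null MEFs, a difference of -4.76. The groups were apart for these genes, which were chosen by these differences, with array B the higher tumor value each time. D0H4S114 (-5.22), Rnf207 (-4.59), Calml4 (-4.47), Sparcl1 (-4.34), the muscle glycolytic enzyme Pgam2 (-4.23) and Hoxd4 (-4.21) were also among the 12.

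Penk and Sfrp2 had the lowest differences but rested on unequal arrays. Penk, the enkephalin precursor, was at 6.30 and 7.32 in tumor cells and 15.01 and 9.62 in null MEFs, a difference of -5.51 ± 1.21 (limma adjusted p = 0.00413). Sfrp2, a secreted inhibitor of Wnt signalling, was at 5.70 and 7.24 in tumor cells and 14.07 and 9.86 in null MEFs, a difference of -5.50 ± 1.34. Null MEF array A was far above array B for both. Without null MEF array A the Sfrp2 difference was -3.39 with an adjusted p of 0.0616, and without tumor array A it was -4.73 with an adjusted p of 0.0565. Fosb, an AP-1 subunit of the early response, was at 9.08 and 10.08 in tumor cells and 13.71 and 14.79 in null MEFs, a difference of -4.67 ± 1.24. Its adjusted p was 0.0115, against 0.0724 without tumor array A and 0.0696 without null MEF array B. Among genes not well above background in tumor cells, the epithelial transcription factor gene Grhl3 was at least 40.6-fold lower in tumor cells, at 5.03 and 5.67 against 10.54 and 10.84 in null MEFs. D630039A03Rik, Pla2g4e and Ttc22 were at least 31.7-fold, 18-fold and 14.8-fold lower. Pla2g4e was flagged well above background only on tumor array A, the array whose scanner file stood apart.

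**Figure D3:**
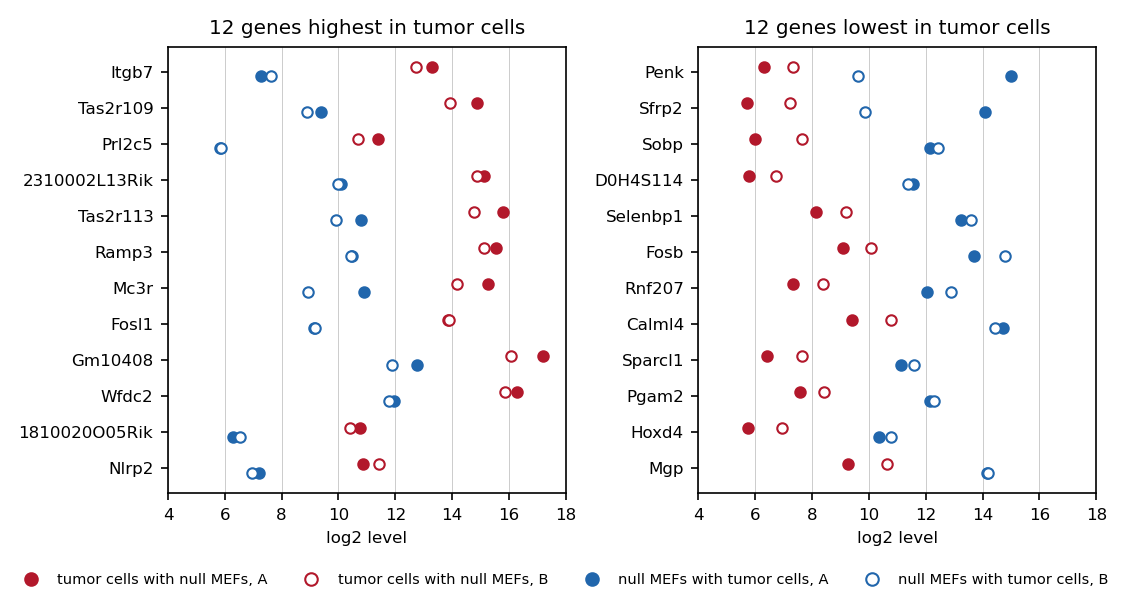
Log2 level on each array for the 12 genes with the highest and the 12 with the lowest difference between tumor cells and null MEFs, with tumor and null MEF arrays coloured and A filled. Penk and Sfrp2 show null MEF array A far above array B, while the arrays of Fosl1 and Ramp3 lie close together within each group.

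Fibrillar collagens and proteoglycans were lower in sorted tumor cells, with exceptions. Of 15 tested collagen genes, 2 were higher and 9 lower in tumor cells, with a median difference of -0.66 against 0.012 over all genes tested. Beside this and each list count below stand the shares of all genes tested. These were 20.6% higher and 22.2% lower in co-culture, and 27.3% and 25.4% alone. Of 24 matrix glycoproteins and proteoglycans, 2 were higher and 11 lower (median -0.72). Subtracting the marker signal gave 2 and 10 collagens and 3 and 12 matrix genes. In a fit of only the 4 arrays 5 collagens were lower, and neither Col1a1 nor Col1a2 passed (adjusted p = 0.0518 and 0.056). The collagen median was -1.35 without null MEF array B, and the matrix median was -0.44 with 4 higher and 9 lower without null MEF array A. The type I collagen chain Col1a1 was at 14.31 and 15.79 in tumor cells and 16.80 and 16.83 in null MEFs, a difference of -1.76, against -8.24 alone. Col3a1 differed by -2.77 ± 0.49 (limma adjusted p = 0.00117), against -10.65 alone. Its change of 7.89 toward tumor cells passed, but after the marker signal was subtracted it was 2.57 with an adjusted p of 0.737. Col1a2 (-1.96), Col5a2 (-2.33) and Col11a1 (-2.47), chains of fibrillar collagens, were also lower in tumor cells.

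Decorin, Dcn, a collagen-binding proteoglycan, was at 7.86 and 9.0 in tumor cells and 11.73 and 12.30 in null MEFs, a difference of -3.58 ± 0.32 (limma adjusted p = 1.19e-05). The related proteoglycan fibromodulin, Fmod (-2.83), was lower too, and lumican, Lum, not well above background in tumor cells, was at least 5.23-fold lower. In the other direction, Col18a1, the basement membrane collagen from which endostatin is cut, was at 14.58 and 14.60 in tumor cells and 12.05 and 12.31 in null MEFs, a difference of 2.41 ± 0.11. Col8a1 (2.07) and the elastic fibre protein Fbln2 (2.30) were higher in tumor cells as well. Fstl1, a secreted follistatin-like protein, was at 12.96 and 14.30 in tumor cells and 15.52 and 15.28 in null MEFs, a difference of -1.77, against -9.46 alone. Rcn3, a chaperone of collagen secretion, differed by -2.85, against -9.48 alone. The matrix genes above with values on both tumor arrays were higher on array B than on array A, except Col18a1, whose arrays differed little.

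General fibroblast markers were split in direction. Of 17 tested, 6 were higher and 7 lower in tumor cells, with a median of -0.003, which was 0.26 without null MEF array A and -0.46 without null MEF array B. Alone 8 were higher and 7 lower. Osr1, a mesenchymal transcription factor, was at 13.03 and 12.83 in tumor cells and 10.25 and 10.40 in null MEFs, a difference of 2.61 ± 0.13 (limma adjusted p = 4.26e-07). The mesenchymal genes Prrx1 (1.17), S100a4 (0.92), Twist1 (0.76) and the intermediate filament vimentin, Vim (0.41), were higher in tumor cells. Vim no longer passed without tumor array B (adjusted p = 0.138), null MEF array A (0.0962) or null MEF array B (0.074). Fap, the fibroblast activation protease, was at 6.02 and 7.14 in tumor cells and 10.20 and 10.49 in null MEFs, a difference of -3.76. Meox1, a somite transcription factor, differed by -2.68. The platelet-derived growth factor receptors were lower by smaller amounts, Pdgfra at -0.42 and Pdgfrb at -0.85, and Pdgfrb was higher in tumor cells alone, at 0.69. Periostin, Postn, was at 6.26 and 7.92 in tumor cells and 11.35 and 8.15 in null MEFs. Thy1 was at 5.55 and 5.07 in tumor cells and 10.48 and 5.61 in null MEFs. Null MEF array A was the high one for both: Postn passed at -2.66 (limma adjusted p = 0.0239) but had an adjusted p of 0.169 without that array, and Thy1 did not pass (adjusted p = 0.0679).

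Epithelial genes were also split. Of 26 tested junction and keratin genes, 8 were higher and 7 lower in tumor cells, with a median of 0.03 that lay between -0.03 and 0.07 with 1 array left out. Krt18 differed by 1.62 ± 0.22 (limma adjusted p = 0.000213) and its filament partner Krt8 by 1.65. Plakophilin 3, Pkp3, a desmosome protein, was at 16.26 and 15.35 in tumor cells and 12.94 and 12.52 in null MEFs, a difference of 3.08 ± 0.37. The tight junction gene Cldn3 (1.88) and the epithelial splicing regulator Esrp2 (1.25) were higher in tumor cells. Krt19 did not differ past the threshold, at 11.21 and 12.28 in tumor cells and 11.56 and 11.89 in null MEFs (0.02, limma adjusted p = 0.963). Tumor cells alone had 5.29 and 5.42 for Krt19, and null MEFs alone had 11.70 and 11.98. The keratinocyte kinase Ripk4 (-2.40) and the protease inhibitor Spint2 (-2.05) were lower in tumor cells.

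Of 9 mammary lineage genes tested, 1 was higher and 4 lower in tumor cells (median -0.24, which was -0.13 without tumor array A, -0.43 without tumor array B and -0.43 without null MEF array A). Gata3, a luminal transcription factor, was at 9.30 and 9.82 in tumor cells and 10.64 and 11.18 in null MEFs, a difference of -1.35. The hormone receptor genes Prlr (-1.14) and Esr1 (-0.94) were lower too. Of 11 regulators of epithelial-mesenchymal transition, 3 were higher and 4 lower (median -0.22, which was -0.36 without null MEF array B, while 5 were higher without null MEF array A). In a fit of only the 4 arrays 1 was lower. Snai1, a repressor of E-cadherin, was at 13.30 and 13.68 in tumor cells and 11.38 and 11.65 in null MEFs, a difference of 1.98 ± 0.15. Foxf1a (1.69) was higher, whereas N-cadherin, Cdh2 (-2.70), and Twist2 (-1.69) were lower in tumor cells.

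Positional transcription factors were mostly lower in sorted tumor cells. Of 33 tested Hox genes, 7 were higher and 17 lower, with a median of -0.71. Of 25 limb and craniofacial patterning genes, 4 were higher and 13 lower (median -1.12). With the marker signal subtracted the Hox counts were again 7 and 17, with a median of -1.44, and the patterning counts 4 and 14. The Hox median was -1.12 without tumor array A and -1.54 without null MEF array B, and the patterning median was -0.61 without null MEF array A. Hoxa10 was at 9.65 and 10.24 in tumor cells and 12.61 and 12.36 in null MEFs, a difference of -2.54 ± 0.18 (limma adjusted p = 2.52e-06). Hoxa9 (-2.27) and Hoxa13 (-2.95) were lower as well, and Hoxb5, not well above background in tumor cells, was at least 5.31-fold lower. Among the 7 higher Hox genes, Hoxa2 was at 10.41 and 10.14 in tumor cells and 8.02 and 8.09 in null MEFs, a difference of 2.23 ± 0.11. Hoxa5 was at 10.33 and 10.23 in tumor cells and 8.96 and 8.72 in null MEFs, a difference of 1.44. The 4 arrays gave no overlap between groups for any of these genes. This is no check, as the genes were chosen by p or after their values were seen.

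The limb genes Tbx5 (-3.24), which specifies the forelimb, and Lhx9 (at least 7.57-fold) were lower in tumor cells. Lhx9 was flagged well above background only on tumor array A, the array whose scanner file stood apart. Pitx1, which specifies the hindlimb, was at 12.96 and 12.72 in tumor cells and 10.01 and 9.18 in null MEFs, a difference of 3.25 ± 0.22, against 7.95 alone. Tbx3 differed by 2.51. Of 12 imprinted growth genes tested, 0 were higher and 8 lower, with a median of -1.51 and the same counts after subtraction. The median was -0.76 without null MEF array A, and 4 were lower in a fit of only the 4 arrays. Cdkn1c, an inhibitor of cyclin-dependent kinases, was at 9.27 and 10.42 in tumor cells and 13.03 and 13.48 in null MEFs, a difference of -3.41 ± 0.31. Sgce (-2.90), Plagl1 (-1.92) and Igf2r (-1.62), which clears insulin-like growth factor 2, were lower too. In Cdkn1c tumor cells alone had 4.99 and 4.92, near the floor.

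Interferon-stimulated genes were lower in tumor cells than in null MEFs when each was alone, and mostly higher in tumor cells after co-culture. All 28 listed genes were tested and well above background in both kinds of sorted cells, the tumor cells judged on array B. Alone, 0 of 28 were higher and 28 lower in tumor cells (median -4.14), while in co-culture 15 were higher and 3 lower (median 0.55). The change passed toward tumor cells in 28 of 28, with a median of 4.34, against 5.95% of all genes and a median of -0.050. The mean level over the list was 13.89 in sorted tumor cells and 13.22 in sorted null MEFs, against 7.73 in tumor cells alone and 11.51 in null MEFs alone. In 15 of the 28 the difference passed in opposite directions (0.541% of all genes tested). After the marker signal was subtracted the counts were again 15 higher and 3 lower, with a median of 0.72. That step cannot turn the sign between same-letter arrays. Without tumor array B, 12 were higher and 3 lower with a median of 0.28, and with the 12 sound scanner files 17 and 0 with a median of 1.09. Beside these values stand the null MEF marker signals of 9.90% and 22.4% on the sorted tumor arrays.

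Promoters of 3 such genes are shown because the letters that interferon-regulatory and STAT factors are known to bind recur in them. The motif searched was GAAANNGAAA, or its reverse complement TTTCNNTTTC, on either strand of the 250 bases before any start listed for a gene, with overlapping matches joined. It was found in 10 of 19 listed genes with a promoter sequence (52.6%), in 8 of the 12 of these that were higher in sorted tumor cells (66.7%), and in 401 of 12942 tested genes with a promoter sequence (3.10%). A match is a description of letters, not of binding. The sequences are from RefSeq (GRCm38.p6), on the gene's own strand, with matches in capitals: Isg15 at chr4:156200819-156201068 (minus strand), Bst2 at chr8:71537473-71537722 (minus strand) and Oas3 at chr5:120777660-120777909 (minus strand).
Isg15: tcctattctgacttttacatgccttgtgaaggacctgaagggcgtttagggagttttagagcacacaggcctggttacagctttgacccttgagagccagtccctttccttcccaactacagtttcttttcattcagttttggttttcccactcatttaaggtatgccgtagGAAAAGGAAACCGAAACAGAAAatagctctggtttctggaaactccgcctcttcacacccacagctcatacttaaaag
Bst2: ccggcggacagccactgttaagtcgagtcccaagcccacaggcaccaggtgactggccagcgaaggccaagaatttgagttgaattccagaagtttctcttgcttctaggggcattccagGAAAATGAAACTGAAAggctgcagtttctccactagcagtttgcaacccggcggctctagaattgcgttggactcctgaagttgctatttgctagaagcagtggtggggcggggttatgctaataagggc
Oas3: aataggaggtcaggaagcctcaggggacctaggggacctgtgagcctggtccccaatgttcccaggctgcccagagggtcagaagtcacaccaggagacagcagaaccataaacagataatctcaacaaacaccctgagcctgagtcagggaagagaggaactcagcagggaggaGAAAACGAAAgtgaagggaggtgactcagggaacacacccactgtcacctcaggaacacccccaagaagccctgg

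Among the effectors of the interferon response, Zbp1, a sensor of Z-form nucleic acids, was at 14.08 and 14.32 in sorted tumor cells and 10.28 and 10.50 in sorted null MEFs, a difference of 3.81 ± 0.16 (limma adjusted p = 1.75e-07). Tumor cells alone had 6.99 and 6.48 for Zbp1, and null MEFs alone had 7.66 and 7.82. Zbp1 was highest on the sorted tumor arrays and lowest in tumor cells alone. Oas3, an activator of RNase L, was at 11.32 and 11.53 in sorted tumor cells and 8.68 and 9.12 in sorted null MEFs, a difference of 2.53 ± 0.16. Bst2, the tetherin that holds budding viruses, was at 17.93 and 17.79 in sorted tumor cells and 16.50 and 16.57 in sorted null MEFs, a difference of 1.33 ± 0.14. Isg15, a ubiquitin-like modifier, was at 16.31 and 16.64 in sorted tumor cells and 15.54 and 15.64 in sorted null MEFs, a difference of 0.88 ± 0.14. The groups did not overlap for any of these 4 genes, which were chosen by p or after their values were seen.

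Oasl1 (1.38), the guanylate-binding protein gene Gbp3 (1.20) and Usp18 (1.21), the protease that removes ISG15 and dampens the receptor, were also higher in tumor cells. Alone, these 3 genes differed by -1.66, -4.97 and -5.86. After the marker signal was subtracted Oasl1 differed by 1.80 with an adjusted p of 0.229. Among the regulators, Irf7, the inducible amplifier of type I interferon, was at 14.10 and 14.64 in sorted tumor cells and 12.15 and 12.80 in sorted null MEFs, a difference of 1.89 ± 0.29 (limma adjusted p = 0.000393). Tumor cells alone had 5.45 and 6.24 for Irf7, and its change was 6.51 ± 0.40. Irf9, part of the complex that reads the receptor signal, did not pass, at 0.22 (limma adjusted p = 0.186). The 3 genes that were lower in tumor cells were the RNA sensor gene Ifih1 (-1.44), the antiviral enzyme gene Rsad2 (-1.06) and Ifit2 (-0.62), each of them higher on tumor array B than on A. None of the 3 passed in a fit of only the 4 arrays or with the 12 sound scanner files, where Ifih1 had adjusted p-values of 0.0627 and 0.736, though Rsad2 passed on those files with normexp (-0.41, adjusted p = 0.0434). Without tumor array A, Rsad2 was at -0.50 (adjusted p = 0.146) and Ifit2 at -0.34 (adjusted p = 0.0509).

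**Figure D4:**
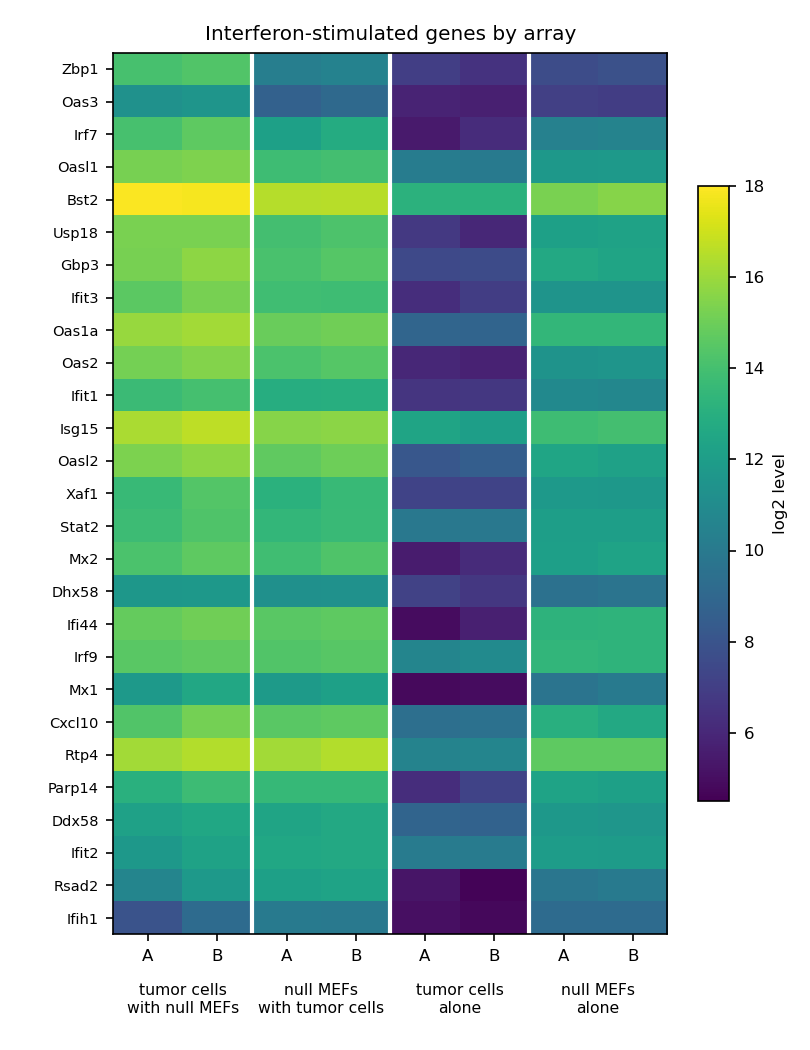
Log2 level of all but 1 of the 28 interferon-stimulated genes (rows) on the arrays of sorted tumor cells, sorted null MEFs, tumor cells alone and null MEFs alone (columns), with darker or lighter colour by level as on the colour bar. Levels are lowest in tumor cells alone, intermediate in null MEFs alone and high in both kinds of sorted cells, with list means of 13.89 and 13.22.

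Antigen presentation genes were mostly lower in tumor cells when each was alone. Of 15 tested, 7 were higher and 1 lower in sorted tumor cells (median 0.39), whereas alone 0 were higher and 12 lower (median -0.83). The change passed toward tumor cells in 12 of 15, against 5.95% of all genes tested. In 4 of 15 the difference passed in opposite directions, lower in tumor cells alone and higher in co-culture, against 0.541% of all genes tested. The co-culture median was 0.72 without tumor array A, 0.12 without tumor array B and 0.61 without null MEF array B, and the 1 lower gene no longer passed after the marker signal was subtracted. The class I heavy chain gene H2-D1 was at 16.91 and 17.53 in tumor cells and 15.39 and 15.97 in null MEFs, a difference of 1.54 ± 0.24 (limma adjusted p = 0.00045). H2-K1 (0.92), H2-T23 (1.01) and Nlrc5 (1.01), the transactivator of class I genes, were higher too. The peptide transporter Tap1 was at 11.77 and 12.11 in tumor cells and 10.52 and 11.23 in null MEFs, a difference of 1.07, against -2.25 alone. Class I alleles are near-identical copies, so a probe may read more than 1 of them.

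Of 24 chemokine and cytokine genes tested, 10 were higher and 3 lower in tumor cells (median 0.48, which was 0.79 without tumor array A). Il11, an interleukin 6 family cytokine, was at 12.11 and 12.01 in tumor cells and 8.50 and 8.78 in null MEFs, a difference of 3.42 ± 0.14 (limma adjusted p = 1.56e-07). The acute phase gene Saa3 was at 10.41 and 11.05 in tumor cells and 7.48 and 7.16 in null MEFs, a difference of 3.41 in co-culture and -0.13 alone. Its change of 3.54 ± 0.32 passed (limma adjusted p = 4.7e-05). Ccl9 (2.15), the neutrophil chemokine Cxcl5 (2.17) and the macrophage growth factor Csf1 (1.77) were higher in tumor cells.

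The monocyte chemokine Ccl2 was at 14.87 and 16.48 in sorted tumor cells and 14.87 and 14.83 in sorted null MEFs, which did not pass (0.83, limma adjusted p = 0.135). Tumor cells alone had 7.54 and 8.26 for Ccl2. Without tumor array A the Ccl2 difference was 1.63 with an adjusted p of 0.00157. The related Ccl7 was at 13.89 and 15.31 in sorted tumor cells and 13.44 and 13.38 in sorted null MEFs, a difference of 1.19 ± 0.42 (limma adjusted p = 0.0397) against -7.77 alone. Ccl7 had an adjusted p of 0.312 without tumor array B, 0.109 without null MEF array A and 0.123 without null MEF array B. Both chemokines were higher on tumor array B than on A, and on both arrays they were far above tumor cells alone. In the other direction, Cxcl14 (-3.30) was lower in tumor cells. Cxcl12, the ligand of Cxcr4, was at 11.04 and 11.62 in tumor cells and 12.78 and 12.63 in null MEFs, a difference of -1.37 ± 0.17. Its receptor Cxcr4 was at 4.76 and 5.31 in tumor cells, not well above background, and 6.19 and 6.02 in null MEFs. The alternative CXCL12 receptor gene Cxcr7 was at 12.73 and 12.87 in tumor cells and 10.24 and 9.64 in null MEFs, a difference of 2.86 ± 0.21.

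Growth factor ligands were more often higher in tumor cells and receptors more often lower. Of 24 ligands tested, 12 were higher and 6 lower (median 0.73), and of 22 receptors 4 were higher and 12 lower (median -0.49). In a fit of only the 4 arrays the receptors gave 2 higher and 7 lower, and 2 were also higher without tumor array A. Amphiregulin, Areg, a ligand of the epidermal growth factor receptor, was at 12.13 and 11.82 in tumor cells and 8.36 and 8.31 in null MEFs, a difference of 3.64 ± 0.12 (limma adjusted p = 6.71e-08). Ereg (3.18) and Nrg1 (1.82), which belong to the same ligand family, were higher too. The receptor Egfr itself was at 9.08 and 10.19 in tumor cells and 11.37 and 11.42 in null MEFs, a difference of -1.76, against -5.86 alone. Inhba, the activin A subunit, was at 13.47 and 13.35 in tumor cells and 9.99 and 9.74 in null MEFs, a difference of 3.55 ± 0.11. Fgf10 (-3.32), a limb bud mesenchymal signal, and the lymphangiogenic factor Vegfc (-2.59) were lower in tumor cells. Among receptors, Met, the hepatocyte growth factor receptor, was higher (1.70) and the endothelin receptor Ednra lower (-2.14).

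The 3 TGF-beta genes split. Tgfb1 was at 11.47 and 11.59 in tumor cells and 9.79 and 10.12 in null MEFs, a difference of 1.58 ± 0.18 (limma adjusted p = 5.43e-05). Tgfb2 was at 10.04 and 10.94 in tumor cells and 12.59 and 12.87 in null MEFs, a difference of -2.24 ± 0.26. Tgfb3 was at 12.37 and 13.06 in tumor cells and 14.22 and 14.58 in null MEFs, a difference of -1.69 ± 0.21. The change between co-culture and alone did not pass for any of the 3.

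Of 20 matrix proteases and inhibitors, 9 were higher and 4 lower in tumor cells (median 0.43). Mmp10, stromelysin 2, was at 13.13 and 12.25 in tumor cells and 9.37 and 9.21 in null MEFs, a difference of 3.40 ± 0.22 (limma adjusted p = 1.54e-06). The urokinase gene Plau (1.92) and its receptor Plaur (1.88) were higher, as was the metalloproteinase inhibitor Timp1 (1.62). Serpine2, an inhibitor of thrombin and urokinase, was at 9.20 and 10.59 in tumor cells and 12.12 and 12.30 in null MEFs, a difference of -2.31. Of 26 integrin and laminin genes, 6 were higher and 10 lower (median -0.28), against 20.6% and 22.2% of all genes tested. In a fit of only the 4 arrays the direction turned, to 7 higher and 5 lower. With the 12 sound scanner files the median was 0.21. The median was -0.12 without tumor array A and -0.14 without null MEF array B. Lamb3, a chain of an epithelial basement membrane laminin, was higher in sorted tumor cells (1.13) and lower in tumor cells alone (-2.94). Itga9, not well above background in null MEFs, was 1.97-fold higher, with a log2 difference of 0.65 on the 12 sound scanner files with normexp. Lama2, a muscle and mesenchymal laminin chain, was lower (-1.81).

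Of 21 cytosolic heat shock genes, Hsf1 included, 11 were higher and 0 lower in tumor cells (median 0.45), while alone 13 were higher and 4 lower. The median was 0.30 without tumor array B, and 7 were higher in a fit of only the 4 arrays. Hspa4l, a nucleotide exchange factor for HSP70, was at 13.74 and 13.98 in tumor cells and 11.66 and 11.79 in null MEFs, a difference of 2.14 ± 0.13 (limma adjusted p = 1.31e-06). The HSP40 co-chaperone Dnajb1 was at 16.45 and 16.34 in tumor cells and 14.91 and 15.15 in null MEFs, a difference of 1.37. Hsp90aa1 (0.88) and Fkbp4 (0.89), a co-chaperone of HSP90, were higher too. The constitutive chaperone Hspa8 did not pass, at 0.13 (adjusted p = 0.482).

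Mitosis genes were mostly higher in tumor cells. Of 23 mitosis genes tested, 18 were higher and 0 lower in sorted tumor cells, with a median of 0.66. In a fit of only the 4 arrays 13 were higher and 0 lower. With the 12 sound scanner files the median was 0.70, and on those files with normexp it was 0.46. Alone 17 were higher and 1 lower, with a median of 0.65. The change passed for 0 of these 23 genes in limma, and 2 had an unadjusted p under 0.05. Of 23 replication genes, 4 were higher and 6 lower (median -0.09), shares near the 20.6% and 22.2% of all genes tested, against 3 higher and 1 lower with the 12 sound scanner files. Their median was -0.21 without null MEF array A and -0.04 without null MEF array B. The spindle checkpoint kinase Bub1 was at 12.77 and 12.58 in tumor cells and 11.72 and 11.62 in null MEFs, a difference of 1.0 ± 0.11 (limma adjusted p = 4.76e-05). The mitotic genes Aurka (1.06), Ccna2 (0.85) and Foxm1 (1.19) were higher as well, although Aurka had an adjusted p of 0.0744 after the marker signal was subtracted. Mki67, a proliferation marker, was at 15.20 and 15.47 in tumor cells and 15.22 and 15.34 in null MEFs and did not pass (0.05, adjusted p = 0.751). Rrm2 (1.19) was higher and Prim1 (-0.76), Tyms (-0.67) and Mcm7 (-0.66), all needed for S phase, were lower in tumor cells.

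Of 13 D cyclins and CDK inhibitors, 6 were higher and 5 lower. Cyclin D1, Ccnd1, was at 15.69 and 15.79 in tumor cells and 13.41 and 13.25 in null MEFs, a difference of 2.41 ± 0.10 (limma adjusted p = 1.67e-07), against 5.50 alone. Cyclin D2, Ccnd2, was at 11.66 and 11.45 in tumor cells and 10.40 and 8.35 in null MEFs, a difference of 2.18. The inhibitor genes Cdkn2d (1.12) and Cdkn2a (-0.89) differed in opposite directions. Of 18 p53 target genes, 4 were higher and 8 lower (median -0.28, which was -0.48 without tumor array B, -0.16 without null MEF array A and -0.44 without null MEF array B). Trp53 itself was at 8.86 and 9.33 in tumor cells and 11.12 and 11.11 in null MEFs, a difference of -2.02. The p53 targets Btg2 (-3.21), Trp53inp1 (-1.97) and Sesn1 (-1.14) were lower in tumor cells.

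Metabolic lists differed in direction. Of 23 hypoxia and glycolysis genes, 18 were higher and 2 lower in tumor cells (median 0.67). Bnip3, a mitophagy receptor induced by hypoxia, was at 14.19 and 14.15 in tumor cells and 12.46 and 12.37 in null MEFs, a difference of 1.76 ± 0.09 (limma adjusted p = 5.71e-07). Ndrg1 (1.63) and the glycolytic enzymes Pgk1 (1.39) and Ldha (1.29) were higher. Car9, carbonic anhydrase 9, went the other way, at 7.90 and 8.26 in tumor cells and 11.60 and 11.11 in null MEFs, a difference of -3.28. Of 21 cholesterol synthesis genes, 1 was higher and 10 lower (median -0.35), while alone 7 were higher and 4 lower. Without tumor array B 5 were lower, and in a fit of only the 4 arrays 4 were. Idi1 (-1.35), Hmgcs1 (-0.89), Dhcr7 (-0.75) and the sterol sensor Insig1 (-0.81) were lower in tumor cells. Of 16 NRF2 antioxidant genes, 8 were higher and 5 lower (median 0.30), with 5 higher without tumor array A and in a fit of only the 4 arrays. The cystine transporter Slc7a11 was at 8.71 and 8.69 in tumor cells and 5.95 and 5.68 in null MEFs, a difference of 2.89. Gsta1, not well above background in null MEFs, was at least 6.21-fold higher, Hmox1 (1.34) was higher and Gstm1 (-1.37) was lower.

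Of 11 smooth muscle genes, 5 were higher and 4 lower. Of 16 striated muscle genes, 3 were higher and 4 lower, shares near the 20.6% and 22.2% of all genes tested. Tnnt2, cardiac troponin T, was at 13.47 and 13.24 in tumor cells and 9.56 and 9.55 in null MEFs, a difference of 3.80 ± 0.18 (limma adjusted p = 2.46e-07). The muscle stress gene Ankrd1 (3.40), Actg2 (2.05), Smtn (1.40) and Tpm1 (0.91) were higher. The myofibroblast marker Acta2 was lower (-1.28), as were Tpm2 (-2.37), Klhl30 (-1.06) and fast troponin Tnnt3 (-3.25). Calponin, Cnn1, passed at 0.90 (adjusted p = 0.0413), against -2.97 alone, but it rested on tumor array B, without which it was 0.25 (adjusted p = 0.282). It had an adjusted p of 0.0763 without null MEF array A and 0.167 without null MEF array B.

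Of 11 macrophage and leukocyte markers, 4 were higher and 0 lower. Cd14, a co-receptor for lipopolysaccharide, was at 13.46 and 13.43 in tumor cells and 10.27 and 10.50 in null MEFs, a difference of 3.06 ± 0.14, and tumor cells alone had 13.03 and 13.13. Cd68 (0.61), Csf1r (0.76) and Tyrobp (at least 1.65-fold, well above background on 1 of the 2 null MEF arrays) were the other 3, at levels of 8.20 or less on each array. Without tumor array A, Csf1r and Tyrobp had adjusted p-values of 0.0555 and 0.0831, and Csf1r had 0.0531 without null MEF array B. Of 9 neural and glial markers, 4 were higher and 2 lower, among them Ncam1 (2.69), Nes (1.09) and Mtap2 (-1.52). Of 5 endothelial markers tested, 0 were higher and 2 lower, Egfl7 (-2.23) and Ramp2 (-1.25), while Pecam1 (-0.31) and Kdr (0.07) did not pass. Of 5 adipocyte markers, 0 were higher and 4 lower, Cebpa (-2.16), Lpl (-1.93), Fabp4 (-1.74) and Pparg (-1.54). The X inactivation transcript Xist was at 6.89 and 6.79 in tumor cells and 6.36 and 5.25 in null MEFs, and was well above background on 1 of the 2 null MEF arrays. The Y-linked genes Ddx3y, Eif2s3y, Kdm5d and Uty were not well above background in enough arrays to be tested.

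**Figure D5:**
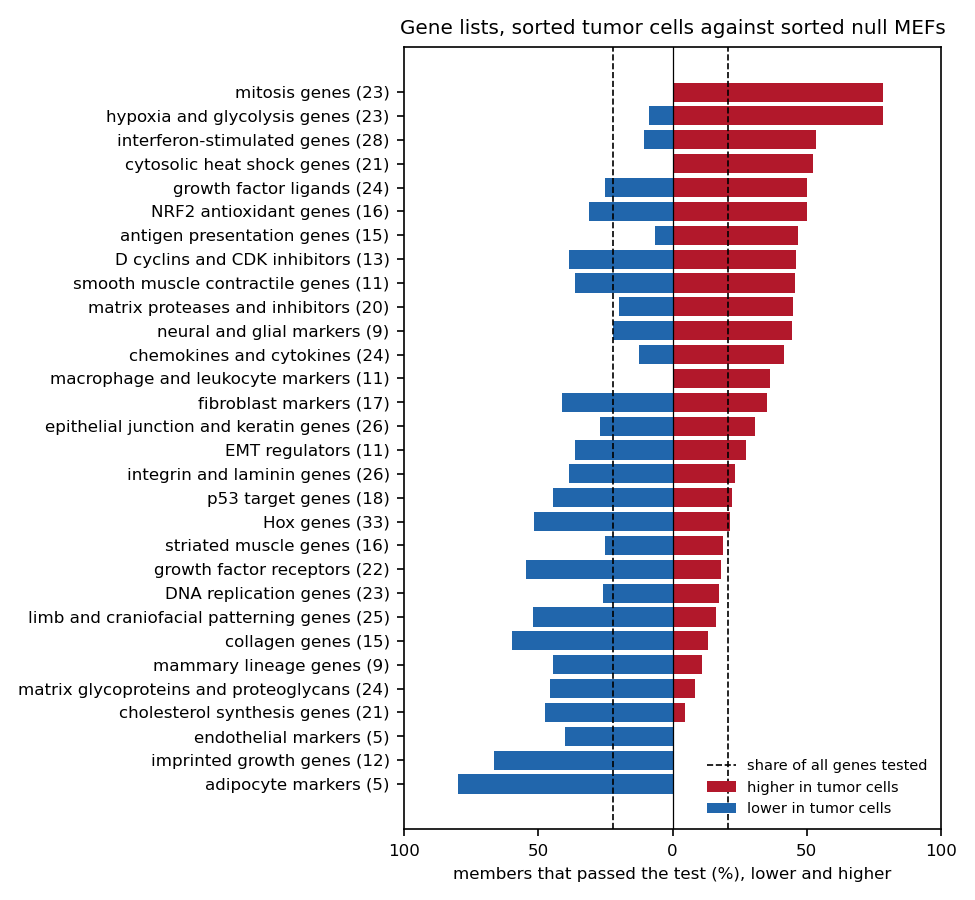
Share of tested members of each gene list (percent) that were higher (right of 0) or lower (left of 0) in sorted tumor cells than in sorted null MEFs. The dashed lines mark the shares among all genes tested, 20.6% higher and 22.2% lower.

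The separation was finally set beside that of tumor cells and WT MEFs sorted from their co-culture. There the sorted cells differed at 8214 genes (31.7%), and the difference between the 2 co-cultures was tested directly. It uses the sorted arrays again, so it is not independent of the values above. It passed at 4569 genes (17.6%), with 2437 (9.41%) shifted toward tumor cells in the null co-culture and 2132 (8.23%) shifted toward MEFs, a split of 53.3% toward tumor cells that was 65.8% with the 12 sound scanner files. The sorted WT MEF arrays carried 38.7% and 39.9% of the tumor marker signal, against 7.72% and 10.4% in sorted null MEFs, and the tumor arrays carried 7.64% and 7.56% of the WT MEF signal, against 9.90% and 22.4% of the null MEF signal. After these shares were subtracted the test called 7686 genes, of which 38.9% were shifted toward tumor cells, against 53.3% before. The part of this marker signal in single genes was not tested.

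Of the 28 interferon-stimulated genes, 9 were shifted toward tumor cells in the null co-culture and 0 toward MEFs (median 0.47, against -0.030 over all genes). Zbp1 was shifted by 3.12 ± 0.23 (limma adjusted p = 4.01e-05), Oas3 by 1.98 and Irf7 by 1.98. Growth factor ligands had 16 genes shifted toward tumor cells and 1 toward MEFs of 24, and chemokines 12 and 0 of 24. Among all genes tested the shares were 9.41% toward tumor cells and 8.23% toward MEFs. Of the sorted arrays, Cxcl5 was at 11.22 and 10.92 in tumor cells and 9.61 and 8.18 in null MEFs, and its shift of 4.93 ± 0.48 was the highest by the rule used for naming. The stem cell antigen gene Ly6a was at 14.21 and 15.07 in tumor cells and 12.33 and 12.75 in null MEFs, a shift of 4.57. Pgam2 (-4.47), Cited1 (-3.55), BC021767 (-3.51), the tight junction gene Cgn (-3.45), Ell3 (-3.41) and the nuclear pore gene Nup210 (-3.27) were shifted toward null MEFs.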

How the data were processed

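RNA (0.5 ug a sample, Cy3) was hybridised to 1-colour Agilent arrays of design 028005. The levels are log2 values deposited by the authors, 1 row a gene name; their scaling between arrays is not stated. Per the file headers, the scanner intensity files came from Feature Extraction 10.1.1.1, where the submitters' processing notes give 9.1. They served for background flags and as an alternative. In 2 of them, array A of the sorted tumor cells of the null co-culture and array A of lone tumor cells, outlier flags covered 36.8% and 32.1% of spots, against 0.246% to 5.74% in the other 12, and their signals correlated with no other array above 0.793. The deposited log2 values of those 2 arrays did not stand apart. Control rows (140) were left out. Against the scanner signals the deposited log2 values had a slope of 0.765 over 10293 genes with several probes, so log2 differences can be smaller than on the scanner scale. The marker signal of the other cell type was also subtracted on the linear scale, array by array, as an alternative.

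Differences were tested with limma 3.58.1 (R 4.3.3, lmFit and eBayes) over 7 groups of 2 arrays, which left 7 residual degrees of freedom, with Benjamini-Hochberg adjustment over 25896 genes. On simulated data for the sorted cells, 71 of 100 genes set at a log2 difference of 1 and 94 of 100 set at 2 were recovered. There were 4 false calls among 25896 genes. The simulation drew independent noise for each array and changed only these genes, whereas 42.9% passed in the data and same-letter arrays deviated together. Its figures therefore do not give the recovery or false calls of the real test. Arrays A and B lay on 2 slides. Same-letter arrays deviated together with r over 0.1 in 20 of 21 pairs of groups (range 0.092 to 0.599), and the slide as a block was run as an alternative. Tables used Python 3.11.15 with pandas 2.3.3.

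Genes were named by rule: Hsf1, the TGF-beta genes, Cxcl12, Cxcr4, Xist and Y-linked genes, the 12 highest and 12 lowest differences that passed on both slides above background, the 4 highest bounds each way, the 6 highest and 6 lowest differences between contrasts, and up to 4 members of each of 31 lists by p. A few genes are counted in their lists but not reported by name here. The other named genes were chosen after their values were seen, and the members and lists were chosen with earlier results of these data known. Of the gene names, 23551 matched a current symbol, 2751 of them a different one; names are the array's own. Promoters came from RefSeq, GRCm38.p6.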

Additional observations from a re-analysis of the deposited data

Results flagged for a closer look

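The rule for the change between co-culture and alone named 12 genes. It kept only genes that passed that test, so their passing is no result. Toward tumor cells the change on the log2 scale was 8.97 for Ccl7, 7.89 for Col3a1, 7.69 for Fstl1, 7.08 for Ccl2, 6.64 for Rcn3 and 6.51 for Irf7. Toward null MEFs it was -7.23 for Krt18, -6.05 for Wfdc2, -5.50 for Spp1, -5.38 for Hamp2, -5.05 for Col4a5 and -4.94 for Aqp5. Spp1, osteopontin, was at 16.38 and 16.21 in sorted tumor cells and 15.47 and 15.01 in sorted null MEFs, and null MEFs alone had 8.40 and 9.24. The water channel gene Aqp5 was at 15.95 and 15.92 in sorted tumor cells and 13.01 and 13.26 in sorted null MEFs, and null MEFs alone had 8.03 and 8.42. Beside these values stand the tumor marker signals of 7.72% and 10.4% on the sorted null MEF arrays and the null MEF marker signals of 9.90% and 22.4% on the sorted tumor arrays, whose part in each gene was not tested.

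The rule for the difference between the null and the WT co-culture gave 12 further values, again only from genes that passed its test. Shifts toward tumor cells in the null co-culture were 4.93 for Cxcl5, 4.84 for the pattern recognition gene Ptx3, 4.57 for Ly6a, 4.51 for Ccnd2, 4.45 for 9030619P08Rik and 4.34 for the interleukin 33 receptor gene Il1rl1. Shifts toward MEFs were -4.47 for Pgam2, -3.55 for Cited1, -3.51 for BC021767, -3.45 for Cgn, -3.41 for Ell3 and -3.27 for Nup210. The sorted null MEF arrays differed for Ptx3, at 13.05 and 10.88, and for Ccnd2, at 10.40 and 8.35.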

How the results depend on the processing

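The count of 11099 genes between sorted tumor cells and sorted null MEFs was 12562 with the slide as a replicate block (paired fit), which changed no other count by over 1.5 times, 11075 after quantile normalization and 10595 without the filter. It was 5574 with the 12 sound scanner files (54.4% higher in tumor cells, against 48.2%, with the median of all genes at 0.137, against 0.012), 6249 with normexp, 7009 with only the 4 arrays, and 8268 to 10287 with 1 array left out. With all 14 scanner files, 2 of them faulty, it was 939, the count alone was 3487, the change 184 (73.4% toward tumor cells, against 62.2%), the WT co-culture 627 (26.0% higher in tumor cells) and the difference between co-cultures 4. Interferon-stimulated genes higher in tumor cells then numbered 4 of 28 and those with a change 11, against 12 to 18 and 28 with 1 array left out. The change of 2478 genes was 1380 with only its arrays, 1034 after the marker signal was subtracted, and 1645 to 3123 with 1 array left out, the lowest without null MEFs alone B. The comparison alone ranged from 11094 to 12356. The WT co-culture count of 8214 was 13059 after subtraction (58.2% higher, against 53.2%) and 5226 to 6416 with 1 array left out, at 5400 and 5226 without sorted WT MEFs A and B. The difference between co-cultures of 4569 was 1852 and 2775 with the sound scanner files and normexp, 7686 after subtraction, and 2746 to 4531 with 1 array left out, at 2906 and 2746 without sorted WT MEFs A and B. With the 12 sound scanner files the split also turned for epithelial (3 higher, 5 lower) and striated muscle genes (4 and 3). Over the named genes, 2631 of 2928 values kept their direction and side of the threshold, 262 no longer passed, 16 newly passed and 19 turned sign. With only the 4 arrays, 18 of 236 no longer passed, and after subtraction 4 of 236, Pgk1 among them (adjusted p = 0.58). The share of tumor signal in null MEFs A was 9.69% over genes at least 8-fold apart.

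With all 14 scanner files these differences turned sign: Hsf1 (-1.52), Tgfb1 (-1.23), Ccl7 (-1.83), Nlrc5 (-1.25), Col8a1 (-0.75), Fbln2 (-0.60), Smtn (-3.28), Bub1 (-2.36), Met (-0.23), Lamb3 (-0.035), Plau (-0.22), Hmox1 (-2.01), Cebpa (0.44), Tap1 (-1.80), Cdh1 (0.63), Prrx1 (-1.21). After subtraction the changes of Wfdc2 (1.72), Rcn3 (-1.75) turned sign, and the Krt19 difference ran from -0.51 without tumor array B to 0.55 without tumor array A. The causes were not tested. The 2 arrays a group limit the precision, and genes near background have only a bound.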

Other observations

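Probes with a run of CT repeats stood out among the genes higher in sorted tumor cells, a list chosen after the values were seen and therefore not tested. Of 126 tested genes with a probe that holds CTCTCTCT, 62 were higher (49.2%) and 9 lower in tumor cells, with a median of 0.44. Among the 25770 genes with no such probe, 20.5% were higher, with a median of 0.011. Of the 12 highest named genes 3 hold the run, and tumor array A exceeded array B by 0.95 for Tas2r109, 1.02 for Tas2r113 and 1.13 for Gm10408, and by 1.09 for Mc3r, whose probe does not hold it.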
